A study of Mus musculus with 40 samples.

Results

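The cytosolic heat shock genes are chaperones and co-chaperones that bind unfolded proteins, and 10 of them were followed here in the brain of mice that differed in the diet of their mother and in their own diet after weaning. The 10 listed genes were Hspa1a, Hspa1b, Hsph1, Dnajb1, Chordc1, Hsp90aa1, Hspa8, Hspb1, Hspe1 and Hspd1, and every array probe annotated with 1 of these symbols was taken. Of the 10 genes, 9 had a probe and Hspa1b had 0. There were 12 probes among the 25697 on the array, and 11 of them, for 9 genes, were among the 14350 probes (9926 genes) above background. A probe counted as above background when its signal exceeded that of olfactory, vomeronasal and taste receptor probes in at least 20 of the 40 arrays. Each of the 11 was above background in all 40 arrays. The remaining probe, 1 of the pair for Hsp90aa1, was above background in only 2 arrays and was left out of the tests.

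Whole-brain RNA came from 40 male C57BL/6J offspring killed at 9 weeks of age after a 4 h fast, with 1 array per animal and 10 animals per group. In a group's name the dam's diet stands first and the offspring's own diet, given from weaning on day 21, second. HF_HF animals had dams on the high-fat, low-carbohydrate diet (HF) and were themselves weaned onto it, LF_HF animals had dams on the low-fat, high-carbohydrate diet (LF) and were weaned onto HF, HF_LF animals had HF dams and were weaned onto LF, and LF_LF animals received LF from both. Dams ate their diet from before mating until weaning, and no transgene or injected agent was part of the design. The replicates were separate animals from 12 breeding cages, 6 per maternal diet, and each breeding cage held 2 females, so that animals of 1 cage had either the same dam or dams that shared the cage. In whole brain, fewer cells of a type and less RNA per cell cannot be told apart.

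Heat shock proteins work as a network. HSP70 proteins (Hspa1a and Hspa1b, which are induced by stress, and Hspa8, which is made at all times) bind exposed hydrophobic stretches of client proteins, J-domain proteins such as Dnajb1 bring clients and stimulate the HSP70 ATPase, and HSP110 (Hsph1) exchanges the nucleotide and helps to dissolve aggregates. HSP90 (Hsp90aa1) completes the folding of kinases and steroid receptors, with Chordc1 as one of its partners, and the small heat shock protein HSP27 (Hspb1) holds unfolded proteins and stabilises actin. Hspd1 (HSP60) and Hspe1 (HSP10) form the chaperonin that folds proteins in the mitochondrial matrix, so these members are not cytosolic in their main role. The stress-inducible members are transcribed when heat shock factor 1 binds heat shock elements, alternating repeats of a short unit, in their promoters.

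These elements were looked for in the RefSeq promoter windows of the mouse assembly GRCm38.p6, each running from 250 bases before to 50 bases after an annotated start. Of the 10 listed genes, 8 had a window, and there were 11 windows in all. The form with 2 units (TTCNNGAA or GAANNTTC, each identical on the opposite strand) was present in 8 of the 11 windows and in 15.1% of all 32851 windows. The form with 3 alternating units, in which the 2 short forms overlap by a shared unit, was present in 5 of the 11 windows and in 0.603% of all windows. These windows are not independent. The 2 of Hsph1 overlap, those of Hspa1a and Hspa1b are near-identical, and Hspe1 and Hspd1 share an element. By gene, 7 of the 8 had the form with 2 units and 4 had the form with 3 units. A TATAAA box was found in 0 of the 11 windows on either strand (13.6% of all windows), and CCAAT was found in 6 (37.4% of all). Dnajb1 was the only gene with a window and no match to an element, which says only that these letters were not in its windows. The stretches that follow are shown because they hold elements of members whose levels differed between groups before adjustment and of the chaperonin pair, with those elements in capitals. Hsph1 had a further short form at -33 to -26 and Chordc1 at 34 to 41, outside these stretches.
Chordc1, chr9:18292259-18292288, plus strand, bases -8 to 22 around the start: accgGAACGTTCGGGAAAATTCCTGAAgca
Hsph1, chr5:149636287-149636306, minus strand, bases 31 to 50 after the start: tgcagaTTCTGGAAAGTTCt
Hspa1a, chr17:34972157-34972276, minus strand, bases -120 to -1: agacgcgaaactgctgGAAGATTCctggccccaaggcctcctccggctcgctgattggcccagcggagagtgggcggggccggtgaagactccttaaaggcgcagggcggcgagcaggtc
Hspb1, chr5:135887779-135887918, plus strand, bases -140 to -1: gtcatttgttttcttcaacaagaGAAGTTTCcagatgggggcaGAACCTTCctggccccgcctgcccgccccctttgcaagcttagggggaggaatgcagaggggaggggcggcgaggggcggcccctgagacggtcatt
Hspe1, chr1:55088028-55088147, plus strand, bases -120 to -1: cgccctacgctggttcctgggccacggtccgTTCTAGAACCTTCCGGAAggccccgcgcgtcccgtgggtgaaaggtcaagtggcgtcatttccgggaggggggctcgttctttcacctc

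The printed element of Chordc1 spanned its annotated start. That of Hspe1 lay between its start and the divergent start of 1 of the 2 Hspd1 windows, so the same letters fell in windows of both chaperonin genes. The other Hspd1 window held 0 elements. The windows of Hspa1a and Hspa1b differed at only 4 of 300 bases. Because these genes are near-identical copies and Hspa1b had no probe of its own, the Hspa1a signal may include Hspa1b transcripts and is uncertain in that respect.

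The brain arrays were quantile-normalised together, so all had the same distribution of intensities, and levels are given here as log2 intensity. The first principal component (PC1) over the expressed probes held 54.8% of the variance, with the largest gap in its scores between 25 arrays at -7.13 or lower and 15 arrays at 8.81 or higher. Of the 11 arrays with a score above 20, 3 were HF_HF, 1 was LF_HF, 3 were HF_LF and 4 were LF_LF. By their mean correlation with the other arrays, 5 arrays stood apart (1 HF_HF, 2 HF_LF and 2 LF_LF), and these had the 5 highest scores on PC1. Markers of neurons, astrocytes, oligodendrocytes, microglia, endothelium and blood were above background, whereas the probes for the neuronal genes Snap25 and Nefl were above it in 0 and 1 arrays, and no defining adipocyte marker in more than 2. Of the liver markers Alb, Serpina1a and Apoa1 were above it in 0, 1 and 40 arrays, of the muscle markers Ckm, Myh4 and Acta1 in 0, 0 and 40, and of the pancreas markers Cpa1, Prss2 and Cela1 in 1, 1 and 40. The heart markers Myh6 and Myl2 were above background in 24 and 30 arrays.

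**Figure D1:**
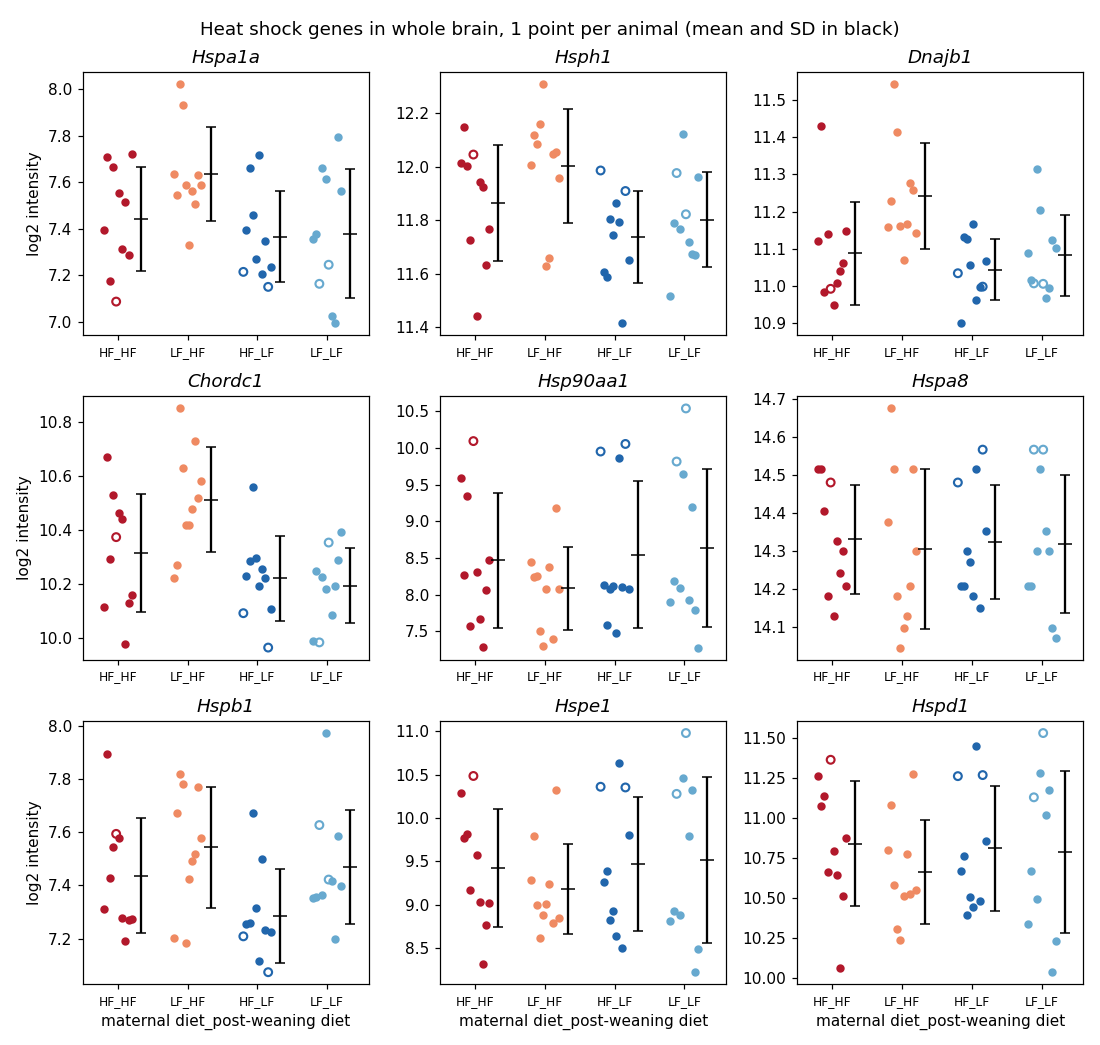
Log2 intensity (y axis) of the probe that stands for each of the 9 measured heat shock genes in HF_HF, LF_HF, HF_LF and LF_LF animals, with 1 point per animal, the mean and SD in black, and open circles for the 5 arrays that stood apart. The Chordc1 points of LF_HF animals (10.22 to 10.85) lie mostly above those of LF_LF animals (9.98 to 10.39), while Hsp90aa1, Hspe1 and Hspd1 spread widely in every group.

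The post-weaning diet was compared first in offspring of LF dams, where Chordc1, Dnajb1, Hspa1a and Hsph1 were higher in LF_HF than in LF_LF animals before adjustment and the other 5 genes had differences of either sign. No member passed a false discovery rate of 0.05 in limma, and neither did any of the 14350 probes (0%). At an unadjusted p under 0.05, 4 of the 9 genes were higher in LF_HF animals and 0 were lower, against 4.13% of all probes higher at that level. The members were chosen with earlier results of these data known and were measured on the same arrays, so this count is a description. The median difference of the 9 genes was 0.074 on the log2 scale and that of all probes was 0.026. Without the 5 arrays that stood apart, Chordc1 (p = 0.000715), Hsph1 (p = 0.0220) and Dnajb1 (p = 0.0386) stayed under that level and Hspa1a did not (p = 0.0706). Without cage 8, which supplied LF_LF animals, only Chordc1 did (p = 0.00392), and without cage 6, also of LF_LF animals, only Chordc1 and Dnajb1 did. With cage as a fixed block Chordc1 (0.38, p = 0.000161) and Dnajb1 (0.21, p = 0.00680) were under it, and Hspa1a (0.18, p = 0.130) and Hsph1 (0.21, p = 0.106) were not. Among the cages of LF dams only cages 4 and 11 held both diets, so the blocked fit rests on them. The difference there was 0.49 and 0.27 for Chordc1 and 0.30 and 0.11 for Dnajb1. With means per cage Chordc1 (p = 0.0180) and Hsph1 (p = 0.0104) had an unadjusted p under 0.05, and Hspa1a (p = 0.0895) and Dnajb1 (p = 0.0551) did not. With PC1 as a covariate Chordc1 (0.29, p = 0.00082), Hsph1 (0.24, p = 0.00817) and Dnajb1 (0.15, p = 0.0242) did, and Hspa1a (0.20, p = 0.0576) did not.

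Chordc1, the HSP90 partner, ran from 10.22 (median 10.50) to 10.85 in LF_HF animals, against 9.98 (median 10.21) to 10.39 in LF_LF animals. All 10 LF_HF animals lay above the LF_LF mean and 8 lay above the highest LF_LF animal, although the ranges overlapped. The mean was 10.51 ± 0.195 in LF_HF and 10.19 ± 0.140 in LF_LF (SD, n = 10 each), a difference of 0.32 ± 0.075 (SE) or 1.25-fold. Its p of 0.000348 was the second smallest of the 14350 probes in limma, but after adjustment p was 0.717.

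Dnajb1, the J-domain partner of HSP70, ran from 11.07 (median 11.20) to 11.54 in LF_HF animals and from 10.97 (median 11.05) to 11.31 in LF_LF animals. The ranges overlapped, with 9 of 10 LF_HF animals above the LF_LF mean. The difference was 0.16 ± 0.059 (limma p = 0.0126, adjusted p = 0.717).
Hspa1a, the inducible HSP70, ran from 7.33 (median 7.59) to 8.02 in LF_HF animals and from 6.99 (median 7.37) to 7.80 in LF_LF animals. Of the LF_HF animals 9 of 10 were above the LF_LF mean and 2, which shared cage 4, were above the highest LF_LF animal. The difference was 0.26 ± 0.104 (limma p = 0.0224, adjusted p = 0.717).
Hsph1, the HSP110 exchange factor, ran from 11.63 (median 12.05) to 12.31 in LF_HF animals and from 11.52 (median 11.78) to 12.12 in LF_LF animals. It was above the LF_LF mean in 8 of 10 LF_HF animals, and the ranges again overlapped. The difference was 0.20 ± 0.084 (limma p = 0.0258, adjusted p = 0.717).

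The other members had differences of either sign, each with an unadjusted p of 0.133 or more. Hspb1 was 7.54 ± 0.227 in LF_HF and 7.47 ± 0.215 in LF_LF animals, a difference of 0.074 ± 0.096 (limma p = 0.445). Hsp90aa1 was 8.09 ± 0.567 in LF_HF and 8.64 ± 1.08 in LF_LF animals, a difference of -0.55 ± 0.353 (p = 0.133) that was smaller than the spread among animals. Hspe1 (-0.34 ± 0.317), Hspd1 (-0.13 ± 0.176) and Hspa8 (-0.01 ± 0.083) had differences within about 1 SE. The LF_HF group held 1 array with a PC1 score above 20 and the LF_LF group 4. With PC1 as a covariate the differences were -0.099 for Hsp90aa1 (p = 0.588), 0.11 for Hspe1 (p = 0.172) and 0.11 for the probe that stands for Hspd1 (p = 0.118). Cage 11 held the 1 LF_HF array with a score above 20 and also the LF_LF arrays with the lowest scores of all 40, -23.6 and -22.9, which had Hsp90aa1 levels of 7.79 and 7.28 and Hspe1 levels of 8.22 and 8.49. Without this cage Hsp90aa1 (-0.88, p = 0.0289) and Hspe1 (-0.69, p = 0.0371) were lower in LF_HF before adjustment.

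**Figure D2:**
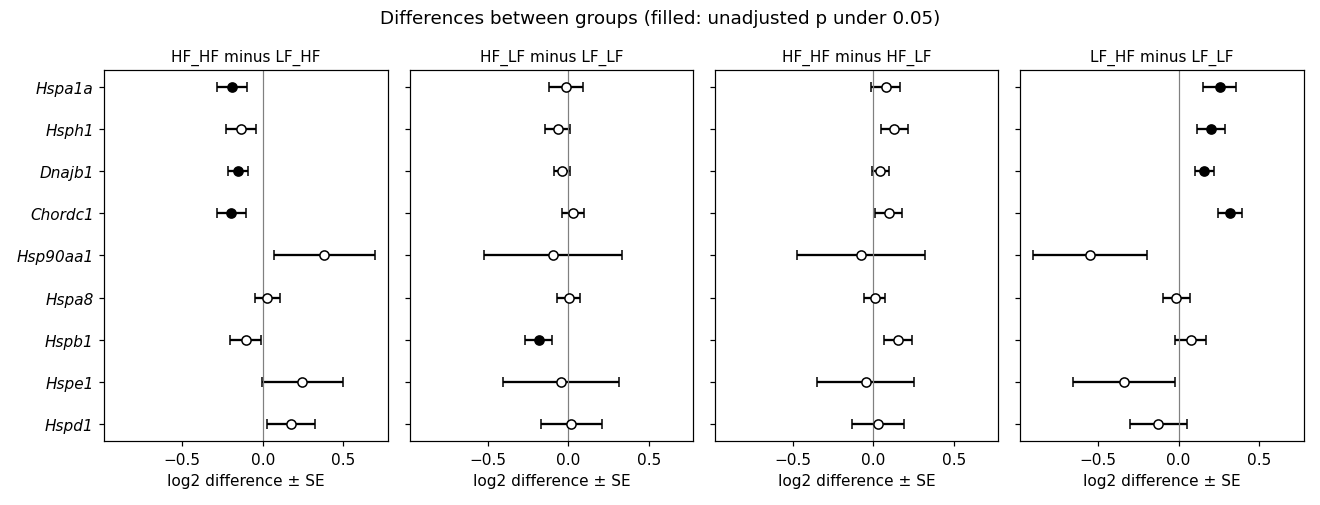
Log2 difference (x axis, ± SE) of the 9 measured heat shock genes in each of the 4 comparisons of groups, with filled points where the unadjusted limma p was under 0.05. Chordc1, Hspa1a, Hsph1 and Dnajb1 are filled to the right of 0 in LF_HF minus LF_LF, and Hsp90aa1 has the widest error in every panel.

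In offspring of HF dams the same change of diet went with smaller differences in Chordc1, Hspa1a, Hsph1 and Dnajb1. Between HF_HF and HF_LF animals 0 members and 0 of 14350 probes (0%) passed the adjusted threshold, and 0 of the 9 genes had an unadjusted p under 0.05, against 1.21% of all probes in either direction. Chordc1 ran from 9.98 (median 10.33) to 10.67 in HF_HF animals and from 9.97 (median 10.23) to 10.56 in HF_LF animals, with almost complete overlap and a difference of 0.094 ± 0.084 (limma p = 0.271). Hsph1 was 11.86 ± 0.218 in HF_HF and 11.74 ± 0.172 in HF_LF animals (difference 0.13 ± 0.085, p = 0.142), and 4 HF_HF animals were above the highest HF_LF animal. Hspb1 had the smallest p of the members here, at 7.44 ± 0.217 in HF_HF and 7.29 ± 0.178 in HF_LF animals (difference 0.15 ± 0.087, p = 0.098). Of the 9 genes 7 were higher in HF_HF, and each difference was under 2 SE. These groups share cages 10, 20 and 23, and with cage as a fixed block Chordc1 (0.17, p = 0.0472) and Hspb1 (0.24, p = 0.0278) had an unadjusted p under 0.05. Without cage 21, Chordc1 (0.19, p = 0.0311) and Hspb1 (0.23, p = 0.0218) were also under it.

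The difference between these diet effects was tested as the interaction of maternal and post-weaning diet over all 40 arrays. No probe and no member passed the adjusted threshold (0% of probes), and 0 of the 9 genes had an unadjusted p under 0.05, against 0.962% of probes. Chordc1 came nearest, with a diet effect lower by 0.22 ± 0.113 on the log2 scale in offspring of HF dams (interaction p = 0.0546, adjusted p = 0.998). Without the 5 arrays that stood apart this was -0.27 (p = 0.0295), and its unadjusted p was under 0.05 in 7 of 26 alternative settings. For no member was the diet effect shown to differ between offspring of HF and LF dams.

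Averaged over maternal diet, HF feeding after weaning gave Chordc1 a level higher by 0.21 ± 0.057 (limma p = 0.000759, adjusted p = 0.658), Hsph1 by 0.17 ± 0.061 (p = 0.00967), Hspa1a by 0.17 ± 0.070 (p = 0.0238) and Dnajb1 by 0.10 ± 0.039 (p = 0.0136). None of the 9 genes passed the adjusted threshold, which 2 of the 14350 probes did (0.0139%). Those probes were for Dbp and Ciart, clock output genes that are named here after their values were seen. The 4 of 9 genes higher at an unadjusted p under 0.05 compare with 4.22% of all probes higher (606, with 192 lower). This is again a description of members chosen with earlier results known. With cage as a fixed block Hspb1 was under that level (0.21, p = 0.0155) and Hspa1a was not (0.13, p = 0.139). Each averaged value rests on the HF_HF, LF_HF, HF_LF and LF_LF animals already described.

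Between HF_HF and LF_HF animals, which differed in the maternal diet, Dnajb1, Chordc1 and Hspa1a were lower in HF_HF before adjustment, and Hsp90aa1 (0.38 ± 0.314), Hspe1 (0.25 ± 0.249) and the probe that stands for Hspd1 (0.18 ± 0.150) had differences of the opposite sign that did not pass. No member and no probe (0%) passed the adjusted threshold. At an unadjusted p under 0.05, 3 of the 9 genes were lower in HF_HF animals and 0 were higher, against 3.22% of all probes lower. Dnajb1 ran from 10.95 (median 11.05) to 11.43 in HF_HF animals and from 11.07 (median 11.20) to 11.54 in LF_HF animals. The ranges overlapped, yet 9 of 10 HF_HF animals were below the LF_HF mean, and the difference was -0.15 ± 0.064 (limma p = 0.0252, adjusted p = 0.853). Chordc1 was 10.32 ± 0.218 in HF_HF and 10.51 ± 0.195 in LF_HF animals (-0.20 ± 0.089, p = 0.0388), and Hspa1a was 7.44 ± 0.226 in HF_HF and 7.63 ± 0.202 in LF_HF animals (-0.19 ± 0.093, p = 0.0496). This comparison shares the LF_HF animals with the comparison to LF_LF, so the same high LF_HF levels enter both. All animals of a breeding cage had dams on the same diet, so cage-mates are not independent replicates of the maternal diet. In limma on means per cage all 3 genes had a p above 0.05 (Hspa1a 0.0629, Dnajb1 0.0795 and Chordc1 0.107). Without the 5 arrays that stood apart, Dnajb1 (p = 0.0427) and Chordc1 (p = 0.0417) stayed under that level and Hspa1a did not (p = 0.102). With cage 10, 11 or 20 left out 1 gene was under that level, and with cage 21 left out only Hspa1a was, while Hspe1 and the probe that stands for Hspd1 were then higher in HF_HF at that level. Leaving out the 2 LF_HF animals of cage 4 brought the 3 differences to -0.095 for Dnajb1 (p = 0.122), -0.14 for Chordc1 (p = 0.140) and -0.11 for Hspa1a (p = 0.225). With PC1 as a covariate Dnajb1 (-0.15, p = 0.0307) and Hsph1 (-0.20, p = 0.0293) had an unadjusted p under 0.05. Chordc1 (-0.18, p = 0.0629) and Hspa1a (-0.14, p = 0.116) did not.

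Red-cell and leukocyte transcripts were read beside these values. All 5 listed blood markers were lower in HF_HF than in LF_HF animals, 4 of them at an unadjusted p under 0.05, by a median of 0.34 on the log2 scale, and their mean level ranged from 7.64 to 8.52 in HF_HF and from 8.00 to 9.11 in LF_HF animals. Between LF_HF and LF_LF animals 4 of the 5 were higher, by a median of 0.13 and with 3 of the 5 at an unadjusted p under 0.05, with mean levels of 8.00 to 9.11 in LF_HF and 7.72 to 8.51 in LF_LF animals. In that comparison 4 of 4 astrocyte markers were higher by a median of 0.14 (mean levels of 9.94 to 10.35 in LF_HF and 9.62 to 10.20 in LF_LF animals) and 3 of 4 microglial markers by a median of 0.15, with 2 of the 4 at an unadjusted p under 0.05 (8.55 to 9.17 in LF_HF and 8.56 to 8.84 in LF_LF animals). Oligodendrocyte markers were lower in 4 of 4, by a median of 0.12, and choroid plexus markers in 3 of 3, by a median of 0.56, with 0 of either at an unadjusted p under 0.05. Mean oligodendrocyte levels were 11.41 to 12.35 in LF_HF and 11.53 to 12.41 in LF_LF animals. Those of choroid plexus spread far more widely, from 6.75 to 10.33 and from 7.35 to 10.41. The part of these cell types in the heat shock values was not tested.

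In animals fed LF after weaning, Hspb1 was the only member that differed by maternal diet before adjustment. No member and no probe (0%) passed the adjusted threshold between HF_LF and LF_LF animals. At an unadjusted p under 0.05, 1 of the 9 genes was lower in HF_LF animals and 0 were higher. Of all probes 0.544% (78) were lower at that level and 120 were higher. Hspb1 ran from 7.07 (median 7.24) to 7.67 in HF_LF animals and from 7.20 (median 7.41) to 7.97 in LF_LF animals, with 8 of 10 HF_LF animals below the LF_LF mean (difference -0.18 ± 0.087, limma p = 0.0457). Its p was under 0.05 in 10 of 23 alternative settings, and without the 5 arrays that stood apart it was 0.196. Chordc1 (0.027 ± 0.068), Dnajb1 (-0.038 ± 0.048) and Hspa1a (-0.014 ± 0.103) had differences within their SE.

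Averaged over post-weaning diet, 2 of the 9 genes were lower after maternal HF feeding at an unadjusted p under 0.05. Of all probes 2.66% (381) were lower at that level and 227 were higher. The 2 genes were Dnajb1 (-0.096 ± 0.039, limma p = 0.0190) and Hspb1 (-0.15 ± 0.065, p = 0.0313). Neither passed the adjusted threshold, which 0% of probes passed. Without cage 4 neither had an unadjusted p under 0.05, and without the 5 arrays that stood apart only Dnajb1 did (p = 0.0344). In limma on means per cage and group, Hspb1 was under that level (p = 0.0377) and Dnajb1 was not (p = 0.0571). The 5 cages with both post-weaning diets enter that fit with a mean for each diet. These means are therefore not independent replicates of the maternal diet.

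The share of variance between breeding cages differed among the members, and none passed the adjusted threshold. In a limma F-test of cage within group, Chordc1 had the sixth smallest p of all probes (p = 0.000306, adjusted p = 0.731), with 75.8% of its within-group variance lying between cages. The median over all expressed probes was 36.6%. A share of this kind is positive even where cages do not differ, because the fit holds 13 cage terms for 40 arrays. The median is therefore a yardstick for the members and not the size of a typical cage effect. Hspa1a had 57.3% (p = 0.0265) and Dnajb1 57.1% (p = 0.0653), whereas Hsph1 had 26.4% (p = 0.765). At an unadjusted p under 0.05 there were 2 of 9 genes, against 2.47% of probes, and 0% of probes passed after adjustment. The LF_HF animals of cage 4 had the highest Hspa1a levels of all 40 animals, 8.02 and 7.93, and Dnajb1 levels of 11.54 and 11.41. Their LF_LF cage-mates averaged 7.51 for Hspa1a and 11.17 for Dnajb1.

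In 5 cages, animals of both post-weaning diets were measured, which allowed cage-mates to be compared. Hsph1 was higher in the HF-fed animals in 5 of 5 cages, by 0.39, 0.22 and 0.16 in the HF-dam cages 20, 10 and 23 and by 0.22 and 0.21 in the LF-dam cages 4 and 11. Hspb1 was also higher in 5 of 5 cages, by 0.079 to 0.31. Chordc1 was higher in 4 of 5, by 0.20 to 0.49, and differed by -0.046 in cage 10. Dnajb1 was higher in 4 of 5 cages and Hspa1a in 3 of 5. Only 1 to 3 animals per diet stood behind each cage mean.

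**Figure D3:**
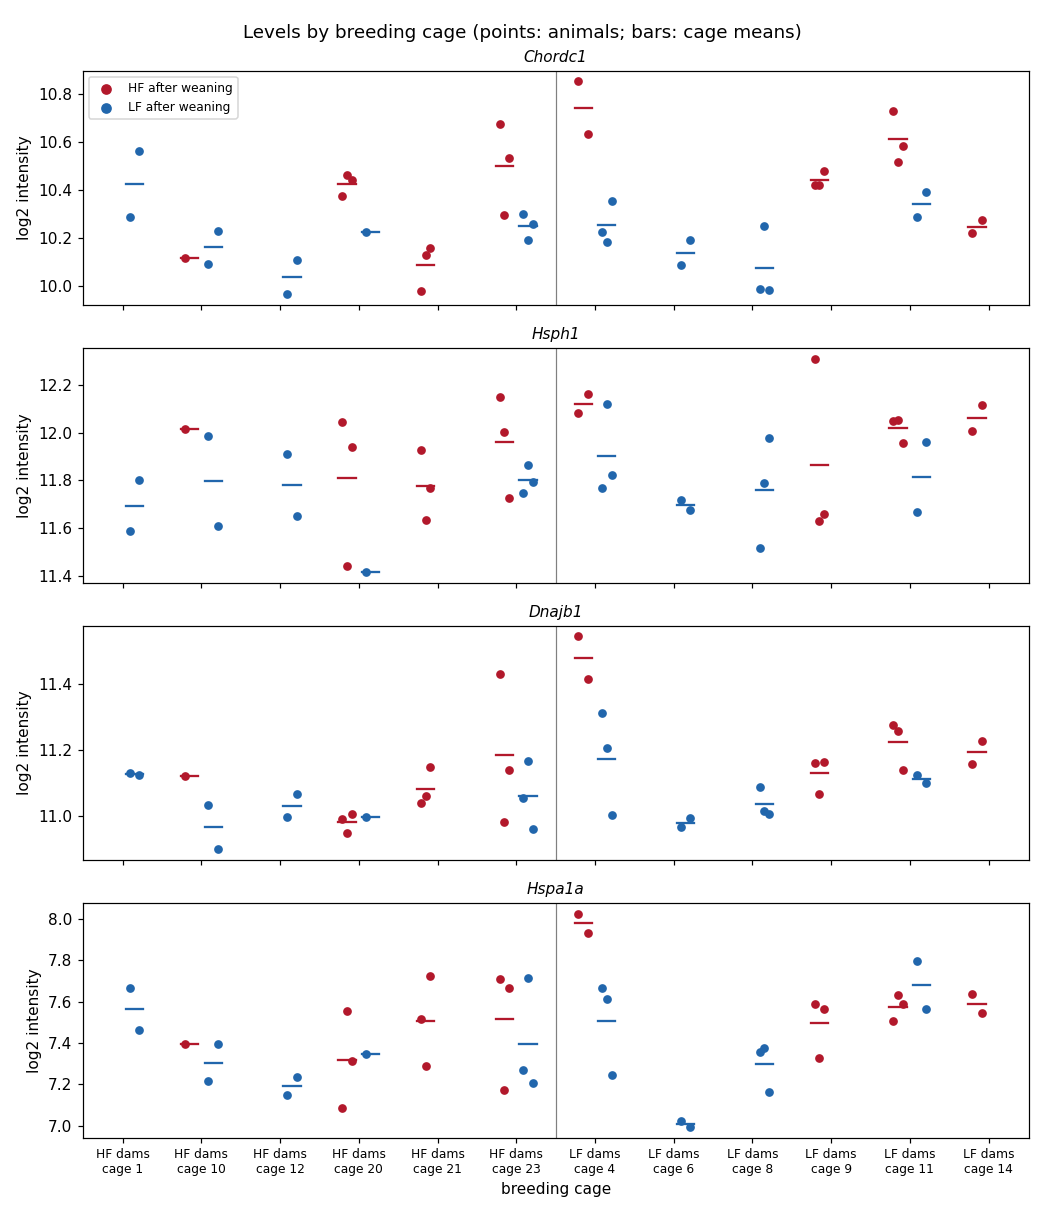
Log2 intensity (y axis) of Chordc1, Hsph1, Dnajb1 and Hspa1a in the 12 breeding cages (x axis), with 1 point per animal, horizontal bars for cage means, and HF-fed animals left of LF-fed animals. HF-fed animals of cage 4 lie highest for Hspa1a (8.02 and 7.93), and Hsph1 is higher in HF-fed than in LF-fed cage-mates in all 5 shared cages.

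Across animals the members fell into separate patterns. Among the probes that stand for the 9 genes, those of Hsp90aa1, Hspe1 and Hspd1 had the widest range, with ratios of the highest to the lowest intensity over the 40 arrays of 9.57, 6.76 and 2.83. The second Hspa8 probe had a ratio of 2.92. For each of the Hsp90aa1, Hspe1 and Hspd1 probes just named, the 11 arrays with a PC1 score above 20 held the 11 highest levels. Hsp90aa1 ran from 9.18 to 10.54 in those arrays and from 7.28 to 8.47 in the other arrays, with no overlap. Such a complete separation was seen in 628 of the 14350 probes (4.38%), so it was shared with many other transcripts. Chordc1 and Hspa1a each had 1 of those 11 arrays among their 11 highest. The second Hspd1 probe had 0 and the Hspa8 probe with the higher mean signal had 8. Over the 40 arrays Hspa1a went down as the PC1 score rose (r = -0.55), and Chordc1 did so less (r = -0.35). The 2 Hspd1 probes went opposite ways, with r = 0.91 for the probe that stands for the gene and r = -0.55 for the second. An r under -0.5 was seen in 36.2% of the expressed probes.

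For the correlations that follow, the mean of each group over all its arrays, on both sides of the gap on PC1, was subtracted first. They were then computed separately in the 15 arrays above the gap and in the 25 below it, because pooling the arrays would mix both sets. Group means were not removed within each set, and LF_LF had 5 arrays above the gap but LF_HF only 2. Differences between groups can therefore remain within a set, and their part in r was not tested. The correlations are descriptions, since the animals shared cages and the probes of an array shared 1 RNA sample. Hspe1 and the probe that stands for Hspd1 had r = 0.94 (rho = 0.98) above the gap and r = 0.87 (rho = 0.82) below it, whereas Hspe1 and the second Hspd1 probe had r = -0.06 (rho = -0.12) above and r = 0.22 (rho = 0.18) below. Hsp90aa1 and Hspe1 had r = 0.86 (rho = 0.82) above and r = 0.64 (rho = 0.56) below. Dnajb1 and Hspa1a had r = 0.89 (rho = 0.91) above and r = 0.74 (rho = 0.67) below, and r was 0.82 and 0.69 when the 2 arrays farthest from the Dnajb1 median were left out of each set. Chordc1 followed Hspb1 below the gap (r = 0.79, rho = 0.80) but less so above it (r = 0.49, rho = 0.50), where r was 0.12 without the 2 arrays farthest from the Chordc1 median. Hspa1a and Hspe1 had r = 0.01 above the gap and r = -0.25 below it.

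**Figure D4:**
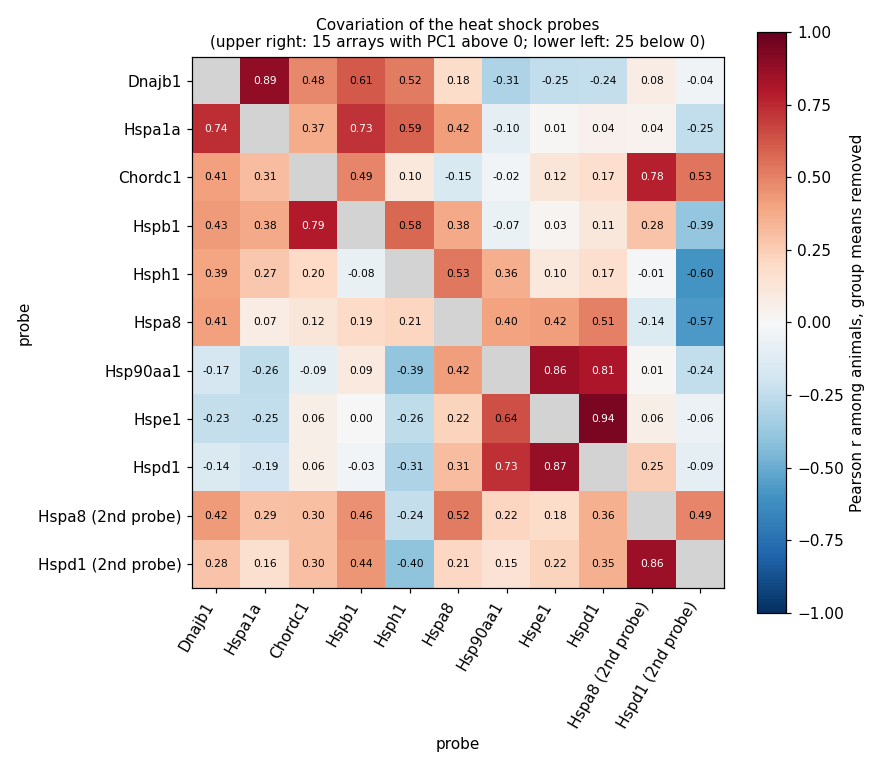
Pearson r (colour and numbers) between the 11 expressed heat shock probes over animals, in the 15 arrays with a PC1 score above 0 (upper right) and the 25 below 0 (lower left). Group means over all arrays of a group were removed before this split, not within each set. Blocks of high r join Dnajb1 with Hspa1a (0.89 and 0.74) and Hspe1 with the probe that stands for Hspd1 (0.94 and 0.87).

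Probes of the same gene did not always follow each other. The pair of Hspd1 probes had r = -0.09 above the gap and r = 0.35 below it, and the pair of Hspa8 probes had r = -0.14 and 0.52. In LF_HF minus LF_LF the Hspd1 probes differed in sign (-0.13 ± 0.176 and 0.17 ± 0.123), so the sign for Hspd1 depended on the probe. The Hspa8 probe with the higher mean signal took only 18 distinct intensities in 40 arrays, because quantile normalisation gave the brightest probes of each array the same set of values, and small differences in Hspa8 could not be resolved there.

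**Figure D5:**
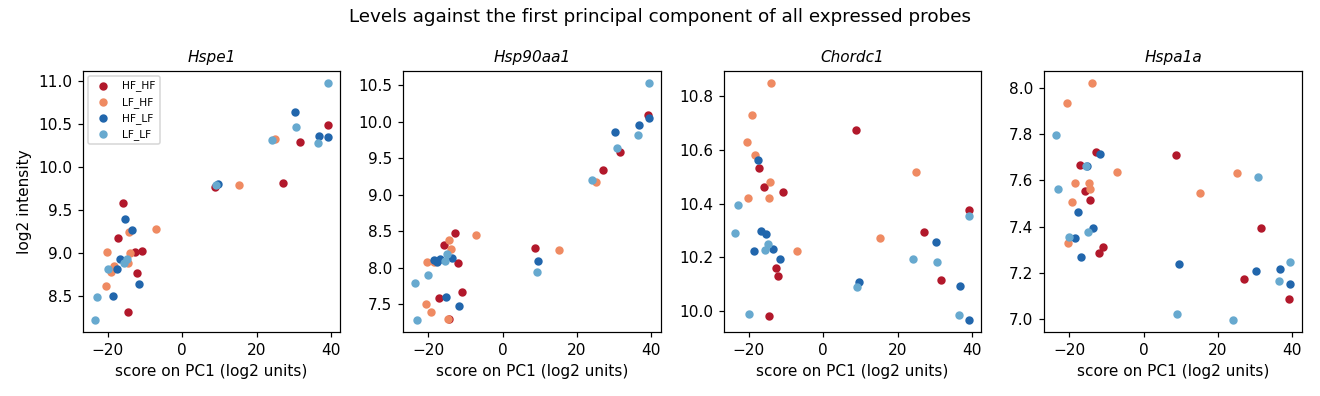
Log2 intensity (y axis) of Hspe1, Hsp90aa1, Chordc1 and Hspa1a against the array's score on the first principal component (x axis, log2 units), with 1 point per animal coloured by group. The 11 arrays with scores above 20 have the 11 highest levels of Hspe1 and Hsp90aa1, which is not so for Chordc1 and Hspa1a.

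Other chaperones were read from lists of cytosolic, mitochondrial and endoplasmic reticulum chaperones, the TRiC chaperonin, heat shock factors and temperature-responsive RNA-binding genes. Of 76 listed genes 63 were measured, and 0 of 63 passed the adjusted threshold in any of the 7 comparisons. Between LF_HF and LF_LF animals 5 of the 63 were higher and 1 was lower at an unadjusted p under 0.05, against 592 higher and 201 lower of all 14350 probes. The median of the 63 was -0.001 and that of all probes 0.026. Pdia4, a protein disulphide isomerase, was 8.90 ± 0.099 in LF_HF and 8.70 ± 0.164 in LF_LF animals (0.20 ± 0.064, limma p = 0.00429). Pdia3, another isomerase, was 11.45 ± 0.160 in LF_HF and 11.25 ± 0.186 in LF_LF animals (0.20 ± 0.076, p = 0.0132), and for both isomerases all 10 LF_HF animals were above the LF_LF mean. Cirbp, an RNA-binding protein induced by cold, was 8.50 ± 0.164 in LF_HF and 8.77 ± 0.228 in LF_LF animals (-0.27 ± 0.087, p = 0.00568), with all 10 LF_HF animals below the LF_LF mean.

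Between HF_HF and LF_HF animals 0 of the 63 were higher and 2 were lower at that level, against 175 higher and 462 lower of the 14350 probes, a share of lower genes no larger than over all probes. They included Creld2, an endoplasmic reticulum stress gene, at 8.56 ± 0.251 in HF_HF and 8.82 ± 0.245 in LF_HF animals (-0.27 ± 0.106, limma p = 0.0192). Ahsa2, related to HSP90 activators, was lower by 0.11 ± 0.050 (p = 0.0466), and Bag3, an HSP70 co-chaperone, differed by -0.20 ± 0.096 (p = 0.0517). Fkbp5, an HSP90 co-chaperone induced by glucocorticoids, had the smallest p of the 63 in both comparisons with HF_LF, at 8.09 ± 0.141 in HF_HF and 8.36 ± 0.230 in HF_LF animals (-0.27 ± 0.085, p = 0.00463), and at 8.36 ± 0.230 in HF_LF and 8.03 ± 0.208 in LF_LF animals (0.33 ± 0.096, p = 0.00262). In HF_HF against HF_LF 3 of the 63 were lower and 0 higher, with 66 lower and 107 higher of the 14350 probes, the others being Hspa9 (-0.076 ± 0.035) and Rbm3 (-0.29 ± 0.133), and Fkbp5 was the only 1 of the 63 past that level in HF_LF against LF_LF, where 120 probes were higher and 78 lower.

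By the rule of likeness to the mean of the members (standardised levels, deviations from group means, 40 arrays), the nearest gene outside the list was Ccdc117 (r = 0.80). Its r was 0.64 in the 15 arrays above the gap on PC1 and 0.64 in the 25 below it. Next came Zfp236 (0.56 and 0.58), Snap29 (0.74 and 0.47), Pdia6 (0.69 and 0.47) and Irf2bpl (0.61 and 0.55). They were followed by Usp10, Bhlhe40, Trib2, Pf4 and Cpsf6, with r of 0.32 to 0.72 above the gap and 0.28 to 0.68 below it. The mean of the members itself had r = 0.63 with the PC1 score over the 40 arrays. These genes were picked for the highest r among all other expressed genes in these same arrays, so each r is a description.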

How the data were processed

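The deposited values were fluorescence intensities on a linear scale from Illumina MouseRef-8 v2.0 arrays, exported by the authors from BeadStudio, whose version is not given in the sources used here. The authors had made the 40 brain arrays alike in distribution by quantile normalisation. Gene symbols came from the array's platform annotation. Groups and cages came from the sample labels.

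Levels are log2 of these intensities, with nothing added. Background was the 95th percentile of 1362 receptor probes in each array, and probes above it in at least 20 arrays were kept. Pairs of groups were compared in limma 3.58.1 (R 4.3.3) on their 20 arrays with a mean-variance trend, and averaged effects, the interaction and cage within group on all 40. P-values were adjusted over the 14350 probes by the Benjamini-Hochberg method at 0.05. The probe with the highest mean stood for a gene. Precision depends on the number of arrays, since no reads were counted. Over all probes the SE of a difference between 2 groups had a median of 0.072 to 0.0761 on the log2 scale. Fits were tested on simulated data.

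Each of these choices was changed in turn. Normalisation was changed to cyclic loess or median centring, 50 was added to the intensities, and the filter was dropped or required in all arrays. Array weights, a fit with no mean-variance trend, 1 model of all arrays, a regularised t-test and an ordinary t-test were run. The regularised t-test used 101 neighbouring probes and a weight of 10, settings chosen here. The study's methods name a Bayesian test whose variance depends on expression level and do not give these settings. Cage was used as a random block, as a fixed block, by its means within each group, and left out 1 at a time. Probes of a gene were averaged, and 5 arrays were omitted whose mean correlation with the others fell over 3 median absolute deviations short of the median. PC1 as a covariate was added after the data were seen. The members, gene lists and tests were chosen with earlier results of these data known. Genes outside the list were named by rule: those that passed or, where none did, the 3 with the smallest p in a comparison, and the 10 most like the mean of the members.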

Additional observations from a re-analysis of the deposited data

Results flagged for a closer look

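Of 44 combinations of an expressed probe and a group, 3 held a value far from the others of its group by Dixon's criterion, and chance marks about 1 in 20 groups. The Dnajb1 level of HF_HF replicate 2 (cage 23) was 11.43, against 11.15 for the next highest HF_HF animal. The Hspd1 level of HF_HF replicate 4 (also cage 23), by the probe that does not stand for the gene, was 9.46, against 9.08 for the next highest. The Hspa8 level of LF_HF replicate 5 (cage 9), again by the probe that does not stand for the gene, was 11.31, against 12.29 for the next lowest. None of these animals was among the 5 arrays that stood apart.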

How the results depend on the processing

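Under every alternative run, in 180 combinations of comparison and setting, 0 members passed the adjusted threshold. Member differences changed sign in 120 of 1804 cases, none of them past the threshold. In LF_HF minus LF_LF, Chordc1 ranged from 0.27 to 0.40, with p from 1.34e-05 to 0.018 and adjusted p from 0.192 to 1.00. The Hsph1, Dnajb1 and Hspa1a differences there kept their sign in all 21 settings. With the regularised t-test 4 of the 9 genes had an unadjusted p under 0.05 in that comparison and 0 in HF_HF minus LF_HF, where means per cage also gave 0. The count of all probes passing was 1 in HF_HF minus HF_LF under cyclic loess, array weights or PC1 as a covariate, 1 in the averaged maternal effect with PC1, and 1 in the interaction without the background filter. In the averaged post-weaning effect it was 0 with the regularised t-test, cage as a fixed block, means per cage or without the arrays that stood apart, 1 with the plain t-test, and 0 to 3 when each cage was left out. The cause was not tested. The median of the members in HF_HF minus HF_LF was 0.23 with cage as a fixed block, against 0.043, and only cages with both diets inform that fit. By replicate number no paired analysis was possible because the labels give animals of different groups no number in common. Cage-mates were paired through the cage labels instead, by within-cage differences and by cage as a fixed block.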
